A study of Rattus norvegicus with 6 samples.

Results

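ER-Golgi transport was examined through 49 genes of the COPII and COPI coats, the cargo receptors, and the tethers and fusion proteins that act between the endoplasmic reticulum (ER) and the Golgi. They were taken by symbol from the count files of vascular smooth muscle cells taken from rats as primary cells. The files held 47 of the 49 symbols, and 46 of these could be tested among the 13016 genes that passed the filter on low counts. Copb2 and Copg1 were not found by symbol, so neither is among the members tested. Their promoters were searched with the others, and a row described as the Copb2 subunit is given with the COPI coat. Gosr1 stood on 2 rows with the same coordinates, both listed at 0 in every library. How reads that match both rows were counted is unstated, so these values put no limit on its RNA.

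The series holds 6 total RNA libraries of these cells, which form the contractile layer of the vessel wall. The labels put 3 libraries in a group named Negative_control and 3 in a group named siRNA_ANK, under a series title on ANK-deficient cells. The rat strain, sex and age, the number and sequence of the siRNAs, the time after transfection and the number of animals are unstated in the sources at hand. Nothing says that the replicates are separate cultures or animals, and a p-value therefore speaks only of the spread among these libraries, which may be technical.

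Proteins made at the ER leave it in vesicles coated with COPII. The GTPase SAR1 starts this coat, an inner layer of SEC23 and SEC24 binds cargo, and an outer layer of SEC13 and SEC31 shapes the vesicle. COPI, a coat of coatomer recruited by ARF GTPases, carries receptors and escaped ER proteins back from the Golgi. Smooth muscle cells use this route to secrete collagen and elastin, and the ATF6, XBP1 and CREB3L transcription factors are known to act on many of its genes when the ER is loaded.

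The libraries held 15641259 to 17441548 counts. Ankh, the gene of the ANK protein, was 338, 351 and 367 CPM (a gene's count relative to the library's total count, with TMM scaling) in the controls and 84.9, 76.7 and 120 CPM with siRNA_ANK. All 8 smooth muscle markers were detected, with 2595 to 3608 summed CPM in the control libraries and 5155 to 6173 in siRNA_ANK, and 7 of them rose. Summed endothelial markers stayed at or under 1.58 CPM and leukocyte markers at or under 1.32 CPM in every library, with Cdh5, Kdr, Emcn, Ptprc, Adgre1 and Cd3e at 0. Of 7 fibroblast markers 5 rose and 1 fell, with sums of 176 to 193 CPM in the control libraries and 234 to 248 in siRNA_ANK, and their part in the results below was not tested. On the first principal component of all genes tested, the libraries closest to the opposite group were replicate 2 of the controls and replicate 3 of siRNA_ANK.

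ER-Golgi transport genes were mostly lower in siRNA_ANK. Of the 46 members tested, 37 fell, 1 rose and 8 did not pass the threshold of an edgeR adjusted p under 0.05. Among all 13016 genes tested, 20.2% fell and 19.9% rose, against 80.4% of the members that fell. Of genes in the middle range of the members' levels, 37% fell. The members were chosen with earlier results of these data known, so these shares describe the list and do not test it. The median log2 fold change was -0.35 over the members, or 78.6% of the control level, and 0.01 over all genes tested. The shifts were small for single genes: 9 members fell at least 1.5-fold, and none fell 2-fold. In 39 members the highest siRNA_ANK library was still under the lowest control, which was so for 25.4% of all genes tested. Without negative control replicate 2 and siRNA_ANK replicate 3, a choice made after seeing the data, 40 members fell and 1 rose, with 23.3% and 22.9% of all genes. Tested against a fold of 1.2 in place of no change, 19 members fell and 0 rose, with 8.77% and 10.3% of all genes.

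**Figure D1:**
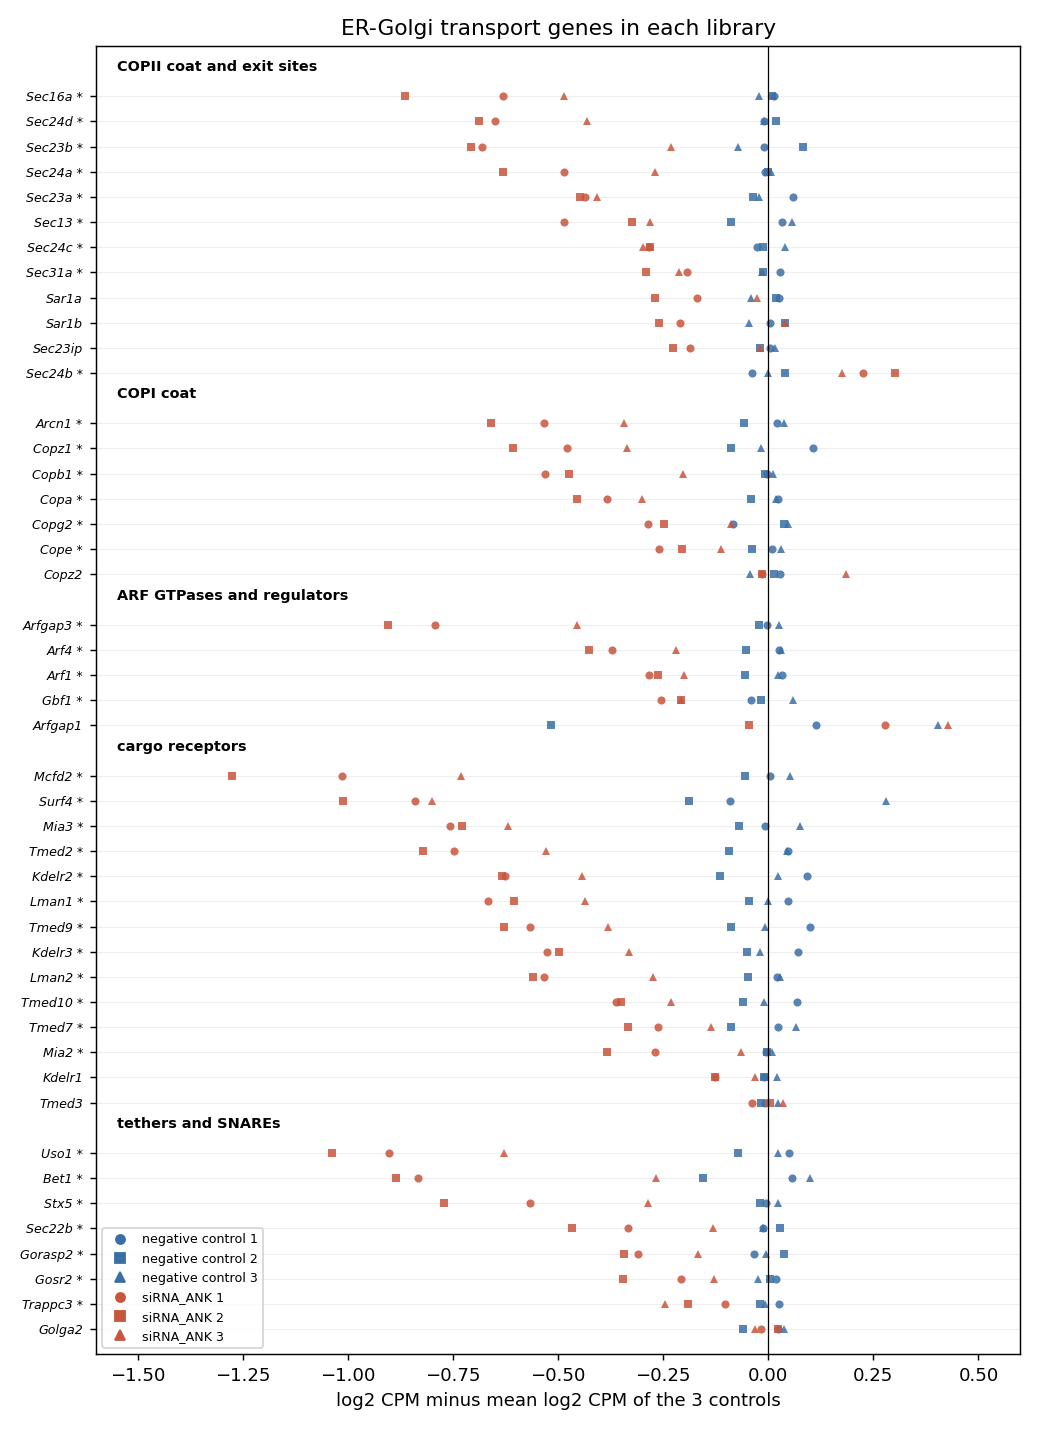
Each row is an ER-Golgi transport gene and each point a library, placed by its log2 CPM minus the mean log2 CPM of the 3 controls; an asterisk marks genes called at an edgeR adjusted p under 0.05. In 39 of the 46 rows the siRNA_ANK points (red) all lie left of the control points (blue), and Sec24b lies to the right.

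The summed level of the 46 members was 10731, 10258 and 10669 CPM in the control libraries and 7706, 7458 and 8603 CPM with siRNA_ANK replicates 1, 2 and 3. These genes thus made up 1.04% to 1.09% of the control counts and 0.730% to 0.848% of the siRNA_ANK counts, and the groups did not overlap. The median member stood at -0.38, -0.43 and -0.24 log2 units against the control mean in siRNA_ANK replicates 1, 2 and 3. Replicate 3 was the highest siRNA_ANK library for 33 of the 37 members that fell, and negative control replicate 2 was the lowest control for 25 of them. In bulk RNA, fewer cells that express a gene and less of its RNA per cell cannot be told apart.

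Members were abundant, with a median of 149 CPM against 21.7 CPM for all genes tested. Of the 1242 genes between 101 and 262 CPM, the middle range of the members, 37% fell, with a median log2 fold change of -0.06. Across the 46 members the log2 fold change ran weakly with the mean log2 CPM (Pearson r = -0.28) and with log2 gene length (r = -0.13), as a description over genes that share the same libraries. The authors' strand setting is unstated in the sources at hand, and 10 of the members tested overlap another row with at least 10 counts on average. They are Copa, Copg2, Cope, Arfgap1, Kdelr1, Kdelr3, Surf4, Tmed2, Tmed7 and Gorasp2. Of those 10, 8 fell, and of the other 36, 29 fell (80.6%).

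**Figure D2:**
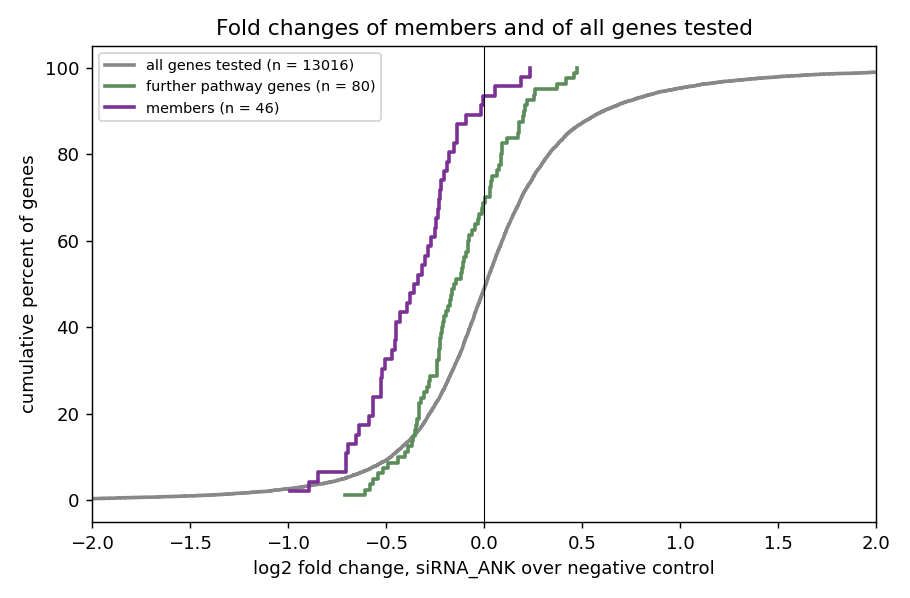
Cumulative percent of genes (vertical axis) by log2 fold change of siRNA_ANK over negative control (horizontal axis, shown from -2 to 2) for 46 members, 80 rows of further pathway genes and 13016 genes tested. The members' curve lies left of the others through most of its range, with a median of -0.35 against -0.15 and 0.01.

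Promoters of the members were searched for letters known from ER stress, since the members moved together. The RefSeq table for build GRCr8 gives 250 bases before and 50 after a gene's start, and it held 44 promoters of 43 members. The core of the unfolded protein response element, TGACGTG, was present on either strand in 25% of the members' promoters (11 of 44), against 1.81% of all 33469 promoters and 2.61% of 10074 promoters of genes tested here. Among promoters of all genes tested that fell, the share was 4.2%. The longer ER stress response elements are CCAAT and CCACG with 9 bases between, or ATTGG and CCACG with 1 base between. They were in 0 of the 44, against 0.0657% and 0.0508% of all promoters. Among promoters of genes tested the shares were 0.179% and 0.0695%, and among those that fell 0.508% and 0.231%. At such shares, 44 promoters are too few to show a lack of these elements. The cyclic AMP response element TGACGTCA shares the letters TGACGT with the core but cannot match at the same place. It was in 1 of 44 (2.27%), against 1.83% of all promoters. Its share was 3.06% among promoters of genes tested and 2.45% among those that fell. These matches are letters in a window and say nothing of binding. The members were chosen with earlier results of these data known, so their share describes the list and does not test it. No other list of secretory genes was searched beside it.

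All 10 tested members with the core fell: Mia3, Sec16a, Stx5, Kdelr3, Sec23a, Copb1, Copa, Arf4, Arf1 and Gbf1, with log2 fold changes from -0.70 to -0.22 and a median of -0.41. Of 30 tested members with a promoter in the table but no core, 22 fell, with a median of -0.27 and a range from -0.99 to 0.23. The difference between these sets was not tested, and 80.4% of all 46 members tested fell. Of the 10074 promoters of genes tested, 2166 belonged to genes that fell. The core was in 263 of the 10074, and 91 of these belonged to genes that fell. Copb2, which has no row under its symbol in the count files, also carries the core in its promoter. The 6 promoters with the core whose genes fell most follow, 5′ to 3′ on the gene's strand, with the core in capitals; CACGTCA is the same core read on the other strand. Stx5 holds it on both strands, once on each side of its start.
Mia3 (chr13:97519570-97519869, minus strand, GRCr8): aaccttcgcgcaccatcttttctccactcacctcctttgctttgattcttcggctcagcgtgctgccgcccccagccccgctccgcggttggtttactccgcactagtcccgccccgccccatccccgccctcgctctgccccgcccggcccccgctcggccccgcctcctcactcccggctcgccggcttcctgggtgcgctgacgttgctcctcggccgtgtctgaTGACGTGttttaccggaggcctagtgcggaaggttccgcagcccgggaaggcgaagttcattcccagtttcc
Sec16a (chr3:29662270-29662569, minus strand, GRCr8): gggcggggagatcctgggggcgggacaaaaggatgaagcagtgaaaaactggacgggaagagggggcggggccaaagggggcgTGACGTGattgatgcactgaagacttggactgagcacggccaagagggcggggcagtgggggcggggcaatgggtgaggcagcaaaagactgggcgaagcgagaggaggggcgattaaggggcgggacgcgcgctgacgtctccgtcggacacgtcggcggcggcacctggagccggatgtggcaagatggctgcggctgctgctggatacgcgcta
Stx5 (chr1:215066282-215066581, plus strand, GRCr8): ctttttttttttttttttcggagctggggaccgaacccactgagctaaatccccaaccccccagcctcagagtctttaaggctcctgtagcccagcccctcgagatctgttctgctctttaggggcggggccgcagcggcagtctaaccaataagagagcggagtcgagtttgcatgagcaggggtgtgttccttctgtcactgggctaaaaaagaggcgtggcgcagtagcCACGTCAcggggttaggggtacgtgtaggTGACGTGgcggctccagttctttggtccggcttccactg
Kdelr3 (chr7:112959382-112959681, plus strand, GRCr8): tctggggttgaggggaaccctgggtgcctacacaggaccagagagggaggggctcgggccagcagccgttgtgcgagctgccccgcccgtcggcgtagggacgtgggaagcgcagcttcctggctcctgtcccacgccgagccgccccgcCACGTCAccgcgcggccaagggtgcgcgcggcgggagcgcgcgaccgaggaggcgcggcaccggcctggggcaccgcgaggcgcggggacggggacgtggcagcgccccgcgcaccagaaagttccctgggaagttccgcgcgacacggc
Sec23a (chr6:82440855-82441154, minus strand, GRCr8): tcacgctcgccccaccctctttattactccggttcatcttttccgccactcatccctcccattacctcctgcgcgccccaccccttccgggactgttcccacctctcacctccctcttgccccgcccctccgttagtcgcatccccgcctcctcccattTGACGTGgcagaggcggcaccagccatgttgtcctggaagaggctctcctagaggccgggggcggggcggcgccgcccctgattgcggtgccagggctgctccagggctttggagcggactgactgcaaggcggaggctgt
Copb1 (chr1:177872791-177873090, minus strand, GRCr8): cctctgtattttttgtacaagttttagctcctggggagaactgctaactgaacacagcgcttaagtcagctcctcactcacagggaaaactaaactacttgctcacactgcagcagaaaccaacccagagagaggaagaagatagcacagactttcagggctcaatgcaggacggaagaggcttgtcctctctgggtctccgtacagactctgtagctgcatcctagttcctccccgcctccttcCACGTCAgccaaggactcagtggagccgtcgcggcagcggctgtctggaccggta

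**Figure D3:**
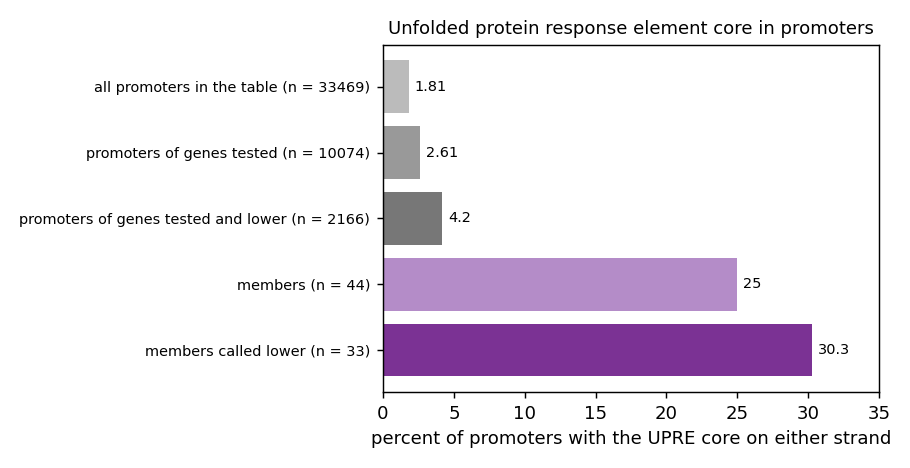
Percent of 300-base promoters (horizontal axis) that hold the unfolded protein response element core on either strand, for all promoters in the table, genes tested, genes tested that fell, members, and members that fell. The share is 25% in 44 member promoters and 30.3% in the 33 of these 44 whose genes fell. It is 1.81% in all promoters, 2.61% in those of genes tested and 4.2% in those of genes tested that fell.

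The COPII coat and its exit sites fell in 8 of 12 members, and 1 rose, with a median log2 fold change of -0.32. Sec16a, which encodes the scaffold of ER exit sites and holds the core shown above, fell most of these genes. It lies on chromosome 3, 9229687 to 9264273, minus strand of mRatBN7.2 (the build of all gene coordinates here). Its levels were 283, 282 and 276 CPM in the control libraries and 181, 154 and 200 CPM with siRNA_ANK (280 ± 3.47 and 178 ± 22.7, SD, n = 3), a 1.57-fold fall (log2 fold change -0.65, SE 0.077; edgeR adjusted p = 1.86e-05). The groups were far apart, with replicate 2 the lowest of the siRNA_ANK libraries.

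Within the inner coat, the cargo-binding SEC24 subunits did not move alike. Sec24d (ENSRNOG00000014872, chromosome 2, 211418623 to 211526587) was 296, 302 and 296 CPM in the control libraries and 190, 185 and 221 CPM with siRNA_ANK (log2 fold change -0.59 ± 0.066, edgeR adjusted p = 7.67e-06). Sec24a was 205, 206 and 207 CPM against 147, 133 and 171 CPM (-0.45 ± 0.076, edgeR adjusted p = 0.000344). Sec24c, the closest relative of Sec24d, fell less, from 111 ± 2.81 to 90.9 ± 0.490 CPM. Sec24b, the closest relative of Sec24a, was the single member that rose: it was 83.0, 87.6 and 85.2 CPM in the control libraries and 99.6, 105 and 96.2 CPM with siRNA_ANK (0.23 ± 0.057, edgeR adjusted p = 0.00509). Its groups did not overlap, and its call was lost in the test against a fold of 1.2 (edgeR adjusted p = 0.837). That test ended the calls of 19 members, and all of these but Sec24b had fallen. Sec24c was among them (edgeR adjusted p = 0.392).

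Levels of the SEC24 subunits were set side by side per kb of gene length. Sec24d made up 51.6% ± 0.393 of the summed CPM per kb of the 4 subunits in the controls and 45.0% ± 1.64 in siRNA_ANK (SD, n = 3). Sec24b went from 11.4% ± 0.199 to 17.6% ± 1.75, while Sec24a was 20.5% ± 0.153 and 19.6% ± 1.35. The sum over the subunits was 149 ± 1.46 and 113 ± 6.96 CPM per kb. Sec24b was thus the least abundant subunit in the controls, and in siRNA_ANK its share lay within the spread of those of Sec24a and Sec24c.

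The other parts of the COPII coat fell or stayed near the controls. Sec23a, the inner-coat subunit that activates SAR1, was 203, 190 and 192 CPM in the control libraries and 144, 143 and 147 CPM with siRNA_ANK (log2 fold change -0.43 ± 0.053, edgeR adjusted p = 1.82e-05). Its groups did not overlap, and the siRNA_ANK libraries were within a few CPM of each other. The related Sec23b was 120, 128 and 115 CPM against 75.4, 74.0 and 103 CPM, with replicate 3 well above the other siRNA_ANK libraries (-0.53 ± 0.12, edgeR adjusted p = 0.00934). Sec13, an outer-coat subunit, was 124, 114 and 126 CPM and then 86.5, 96.8 and 99.8 CPM (-0.36 ± 0.066, edgeR adjusted p = 0.000546), and its partner Sec31a fell 1.17-fold.

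The SAR1 GTPases that start the coat and Sec23ip, which binds SEC23, did not pass the threshold. Sar1a was 374, 372 and 357 CPM in the control libraries and 327, 305 and 361 CPM with siRNA_ANK, and the groups overlapped because of replicate 3 (edgeR adjusted p = 0.0672). Sar1b and Sec23ip had edgeR adjusted p = 0.171 and 0.0874. With no filter on low counts, Sar1a also fell (edgeR adjusted p = 0.0304). Without siRNA_ANK replicate 3, Sar1a, Sar1b and Sec23ip fell (log2 fold change -0.22, -0.24 and -0.20, edgeR adjusted p = 0.000770, 0.00255 and 0.00246). Sar1b and Sec24a lie head to head on chromosome 10, with 28 bases between the ends that the files give them, and their log2 fold changes were -0.14 and -0.45.

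The COPI coat fell in 6 of 7 members tested, with a median log2 fold change of -0.38. Arcn1, which encodes the delta subunit of coatomer, was 633, 600 and 640 CPM in the control libraries and 431, 395 and 492 CPM with siRNA_ANK (624 ± 21.6 and 439 ± 48.9, SD, n = 3; chromosome 8, 45057619 to 45082247). The fall was 1.42-fold, -0.51 ± 0.071 on the log2 scale (edgeR adjusted p = 6.59e-05). The alpha subunit gene Copa was 670, 640 and 667 CPM and then 505, 481 and 535 CPM (-0.38 ± 0.055, edgeR adjusted p = 8.32e-05). In both genes each siRNA_ANK library lay below the lowest control, and Copa overlaps Ncstn in the files.

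Copb1, the beta subunit gene, was 349, 348 and 353 CPM in the control libraries and 242, 252 and 304 CPM with siRNA_ANK, with replicate 3 nearest to the controls (log2 fold change -0.40 ± 0.074, edgeR adjusted p = 0.000760). Cope, the epsilon subunit gene, was 124, 120 and 126 CPM against 103, 107 and 114 CPM, and Copg2, a gamma subunit gene, was 41.1, 44.7 and 45.0 CPM against 35.7, 36.7 and 41.0 CPM. These were the smallest COPI falls (edgeR adjusted p = 0.0166 and 0.0426). The call of Cope was lost without control replicate 1 or 3 or siRNA_ANK replicate 1 (edgeR adjusted p = 0.0646, 0.0693 and 0.0924). That of Copg2 was lost on leaving out replicate 2 or 3 of the controls (0.113 and 0.134) or replicate 1 or 2 of siRNA_ANK (0.158 and 0.111), with upper quartile scaling (0.0612) and in DESeq2 (0.0723).

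The zeta subunit has a pair of genes, and they differed. Copz1 was 159, 139 and 146 CPM in the control libraries and 106, 97.0 and 117 CPM with siRNA_ANK (log2 fold change -0.47 ± 0.073, edgeR adjusted p = 0.000159). Copz2 was 76.2, 75.4 and 72.5 CPM against 73.9, 73.9 and 84.9 CPM, and the groups overlapped (0.05 ± 0.066, edgeR adjusted p = 0.561). Per kb, Copz1 made up 47.8% ± 1.62 of the pair in the controls and 38.9% ± 1.09 in siRNA_ANK. A row without the symbol Copb2, named AABR07071244.1 but described as COPI coat complex subunit beta 2, was looked up after the symbol had not been found. It was 235, 251 and 238 CPM in the control libraries and 221, 212 and 221 CPM with siRNA_ANK (-0.15 ± 0.053, edgeR adjusted p = 0.0425), a call lost when any library but siRNA_ANK replicate 3 was left out (0.0768 to 0.138), with the replicate number as a block (0.0586), with upper quartile scaling (0.0704) and in DESeq2 (0.0526). It is not among the members counted.

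ARF GTPases recruit coatomer, and 4 of the 5 members around them fell. Arfgap3, a GTPase-activating protein that ends the ARF cycle on COPI vesicles, was 156, 154 and 159 CPM in the control libraries and 90.2, 83.5 and 114 CPM with siRNA_ANK (chromosome 7, 114432873 to 114479208). It fell 1.63-fold (log2 fold change -0.71 ± 0.096, edgeR adjusted p = 0.000198), more than any other gene of the ARF group. The GTPase gene Arf4 was 604, 572 and 606 CPM and then 459, 442 and 510 CPM (-0.34 ± 0.060, edgeR adjusted p = 0.000481). Both genes were highest in replicate 3 among the siRNA_ANK libraries, without reaching the controls.

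Arf1, the main GTPase of COPI, was 478, 450 and 475 CPM in the control libraries and 384, 390 and 407 CPM with siRNA_ANK (log2 fold change -0.25 ± 0.053, edgeR adjusted p = 0.00173). Gbf1, the exchange factor that activates ARF1 at the early Golgi, was 167, 170 and 179 CPM against 144, 149 and 149 CPM (-0.22 ± 0.053, edgeR adjusted p = 0.00436). Neither pair of groups overlapped. Arfgap1 was near the detection limit, at 12 to 21 counts per library, and did not pass the threshold (log2 fold change 0.19 ± 0.34, edgeR adjusted p = 0.701).

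Cargo receptors fell in 12 of 14 members with a median log2 fold change of -0.49, the lowest among the roles. Mia3 encodes TANGO1, which fits COPII carriers to bulky cargo such as procollagen, and had the smallest adjusted p of all members. It was 358, 343 and 379 CPM in the control libraries and 213, 217 and 234 CPM with siRNA_ANK (360 ± 18.1 and 221 ± 11.3, SD, n = 3; ENSRNOG00000059202, chromosome 13, 94970424 to 95011972). The fall was 1.63-fold (-0.70 ± 0.059, edgeR adjusted p = 4.54e-07), and the 3 siRNA_ANK values lay close together. Its partner Mia2, which works beside TANGO1 at exit sites, was 96.0, 96.1 and 96.9 CPM and then 79.9, 73.8 and 92.1 CPM (-0.23 ± 0.073, edgeR adjusted p = 0.0186). That call was lost when any library but negative control replicate 2 or siRNA_ANK replicate 3 was left out (edgeR adjusted p = 0.0576, 0.0593, 0.0776 and 0.0835).

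The receptor of coagulation factors and other glycoproteins is made of the lectin LMAN1 and its partner MCFD2. Lman1 was 302, 283 and 292 CPM in the control libraries and 184, 192 and 216 CPM with siRNA_ANK (log2 fold change -0.56 ± 0.064, edgeR adjusted p = 8.27e-06). Mcfd2, given in full because its change was the largest of all members, was 148, 142 and 153 CPM and then 73.1, 61.0 and 89.0 CPM, 1.99-fold lower (-0.99 ± 0.12, edgeR adjusted p = 0.000213). In both genes the groups were clearly apart. The related lectin gene Lman2 fell 1.37-fold, and Surf4, whose protein is a receptor for soluble secreted cargo, fell 1.86-fold from the low level of 16.5 ± 2.94 to 8.86 ± 0.679 CPM. Surf4 overlaps Surf2, Surf1 and Stkld1 in the files, so its counts are uncertain.

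Members of the p24 family, which sort cargo in both coats, fell in 4 of 5 genes. Tmed2 was the most abundant member of all per kb, and was 741, 672 and 740 CPM in the control libraries and 427, 406 and 497 CPM with siRNA_ANK (chromosome 12, 32052543 to 32071903; log2 fold change -0.69 ± 0.073, edgeR adjusted p = 5.72e-06). Tmed9 was 336, 295 and 312 CPM and then 212, 203 and 241 CPM (-0.52 ± 0.069, edgeR adjusted p = 3.68e-05). Tmed2 overlaps Rilpl1 in the files, with 1118 counts per library on average. Tmed10 and Tmed7 fell 1.25-fold and 1.19-fold, and Tmed7 overlaps Eif1a, a row with 4934 counts on average. Tmed3 stayed level at 138, 137 and 141 CPM in the control libraries and 135, 139 and 142 CPM with siRNA_ANK (edgeR adjusted p = 0.948). Per kb, Tmed2 made up 41.3% ± 0.607 of the summed level of these 5 genes in the controls and 34.5% ± 1.27 in siRNA_ANK, and Tmed3 made up 13.1% ± 0.519 and 17.7% ± 0.972.

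KDEL receptors return chaperones that carry a KDEL tail from the Golgi to the ER, and 2 of the 3 genes fell. Kdelr2 was 362, 314 and 345 CPM in the control libraries and 220, 219 and 250 CPM with siRNA_ANK (log2 fold change -0.57 ± 0.068, edgeR adjusted p = 1.53e-05). Kdelr3 went from 141 ± 6.40 to 103 ± 7.73 CPM (-0.45 ± 0.064, edgeR adjusted p = 6.70e-05), and overlaps an unnamed row with many counts. Kdelr1 was 221, 221 and 226 CPM against 204, 204 and 218 CPM, lower in each siRNA_ANK library but not past the threshold (edgeR adjusted p = 0.189, and 0.0406 without siRNA_ANK replicate 3). Per kb, Kdelr2 was the largest of the 3 in the controls at 42.7% ± 1.31, ahead of Kdelr1 at 32.4% ± 1.33. In siRNA_ANK, Kdelr1 had 39.3% ± 0.897 and Kdelr2 37.3% ± 0.601, and Kdelr1 was the larger by mean. Hspa5, the most abundant KDEL chaperone gene, was 14770, 12878 and 15003 CPM in the control libraries and 3028, 2271 and 5376 CPM with siRNA_ANK (25% of the control level by the fit, edgeR adjusted p = 0.0168, lost without control replicate 1 or 3 or siRNA_ANK replicate 1).

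Tethers and SNAREs, which dock and fuse the vesicles, fell in 7 of 8 members tested with a median log2 fold change of -0.29. Uso1 encodes p115, the tether that links incoming COPII vesicles to the cis-Golgi, and fell most in this role. It was 561, 516 and 551 CPM in the control libraries and 290, 264 and 351 CPM with siRNA_ANK (543 ± 23.4 and 302 ± 44.8, SD, n = 3; ENSRNOG00000002301, chromosome 14, 15866638 to 15932171). The fall was 1.80-fold (-0.85 ± 0.091, edgeR adjusted p = 3.31e-05). Golga2, which encodes GM130, the Golgi partner that p115 binds, was 106, 100 and 107 CPM against 103, 106 and 102 CPM, and its groups overlapped (-0.02 ± 0.055, edgeR adjusted p = 0.822). Gorasp2, a Golgi stacking protein, was 201, 211 and 205 CPM and then 166, 162 and 183 CPM (-0.27 ± 0.059, edgeR adjusted p = 0.00195).

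The SNARE set of the early Golgi was lower where it was measured. Stx5, the syntaxin of this set, was 103, 102 and 105 CPM in the control libraries and 69.7, 60.5 and 84.8 CPM with siRNA_ANK (log2 fold change -0.53 ± 0.10, edgeR adjusted p = 0.00173). Sec22b was 141, 145 and 141 CPM and then 113, 103 and 130 CPM (-0.30 ± 0.072, edgeR adjusted p = 0.00396), and Gosr2 was 103, 102 and 100 CPM and then 88.1, 80.0 and 92.9 CPM (-0.23 ± 0.063, edgeR adjusted p = 0.0101). All 3 were lowest in replicate 2 and highest in replicate 3 of siRNA_ANK, and no groups overlapped. Bet1 went from 46.1 ± 4.25 to 29.6 ± 7.40 CPM (edgeR adjusted p = 0.0143), a call that was lost with no filter on low counts (0.0519). Trappc3, a subunit of the TRAPP tether, fell 1.13-fold (edgeR adjusted p = 0.0454), and its call was lost in every setting tried except DESeq2 size factors, limma-voom and leaving out siRNA_ANK replicate 1.

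Related members were also set against each other within each library, as the log2 ratio of counts per kb, which does not depend on library scaling. Of 14 pairs listed, 12 could be compared, since Copg1 and Gosr1 had no counts to use. In 10 pairs the ratios of the groups did not overlap, and an exact two-sided permutation test gave each p = 0.1, the smallest that 3 against 3 libraries allow (0.12 adjusted over the 12 pairs), so no pair could pass 0.05. The share among other gene pairs was not computed. Of the 13016 single genes tested, 3303 were lower and 3351 higher in siRNA_ANK without overlap. The 10 pairs include Arfgap3/Arfgap1, and Arfgap1 had 12 to 21 counts per library. The Sec24a/Sec24b ratio was 0.88, 0.81 and 0.86 in the controls and 0.14, -0.08 and 0.41 in siRNA_ANK. The Tmed3/Tmed2 ratio was -1.71, -1.58 and -1.68 and then -0.95, -0.84 and -1.10, a difference of 0.69 in favour of Tmed3. The Mia2/Mia3, Copz1/Copz2 and Kdelr2/Kdelr1 ratios differed by 0.46, -0.52 and -0.47. The ratios of Sar1b to Sar1a and of Sec23a to Sec23b overlapped between the groups (exact permutation p = 0.8 and 0.6).

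**Figure D4:**
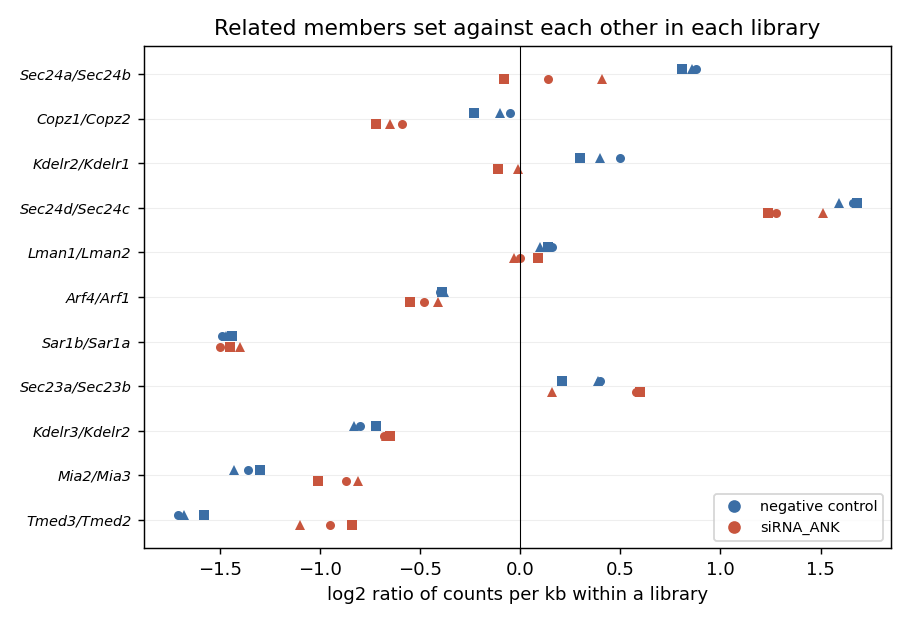
Each point is a library, placed by the log2 ratio of counts per kb of the 2 genes named on the left (Arfgap3/Arfgap1, with a near-undetected partner, is not drawn); blue is negative control and red siRNA_ANK, with circle, square and triangle for replicates 1, 2 and 3. The groups are apart for all pairs drawn except Sar1b/Sar1a and Sec23a/Sec23b, and farthest apart, by 0.69, for Sec24a/Sec24b and Tmed3/Tmed2.

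Other genes of the early secretory route were lower less often. Of 84 listed, 80 symbols were found and 79 tested, on 80 rows since Rab1b has 2. In these rows 31 genes fell (38.8%) and 9 rose, with a median log2 fold change of -0.15, beside the 20.2% and 19.9% of all genes given above. The difference in shares from the members was not tested, and levels were not matched. These 80 rows summed to 5469 to 5581 CPM in the control libraries, against 10258 to 10731 CPM for the 46 members. Further COPII factors (4 of 8 fell, 0 rose) included Pdcd6, a calcium sensor that binds SEC31, and Tfg, which organises exit sites; they fell 1.31-fold and 1.26-fold. Among further ARF factors (4 of 6 fell, 0 rose), the exchange factor gene Arfgef2 fell 1.28-fold.

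Sorting factors moved both ways, with 6 of 14 lower and 3 higher. The p24 gene Tmed5 fell 1.64-fold and Yif1a by 0.58 on the log2 scale, while Ergic1, a protein that cycles between ER and Golgi, rose from 118, 130 and 112 CPM to 156, 161 and 149 CPM (log2 fold change 0.37 ± 0.063, edgeR adjusted p = 0.000280). Tmed4 rose 1.15-fold. Of 11 further SNAREs and partners, 5 fell and 1 rose: Scfd1, the regulator of STX5, fell 1.53-fold, Stx18, the ER syntaxin of retrograde COPI fusion, fell 1.46-fold, and Use1 rose 1.16-fold with groups that overlapped.

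Large tether complexes were mostly not called. Of 11 NRZ and COG subunits 2 fell, Rint1 by 1.40-fold and Cog3 by 1.22-fold, and their median was -0.03. Of 13 TRAPP subunits 3 fell and 3 rose, with a median of 0.08; Trappc2l and Trappc6b fell 1.26-fold and 1.17-fold, and Trappc2 and Trappc6a rose 1.39-fold and 1.38-fold from low levels, that of Trappc2 being 4.83 CPM. Among 8 golgins tested 3 fell and 1 rose, with Golgb1 (giantin) 1.36-fold and Gcc2 1.25-fold lower and Golga5 1.19-fold higher. Of 9 rows of early RAB GTPases 4 fell and 1 rose: Rab1a, needed for ER to Golgi transport, went from 387 ± 8.61 to 305 ± 16.9 CPM, Rab6a fell 1.17-fold and Rab33b rose 1.15-fold. The calls of Tmed4, Use1, Cog3, Trappc2, Trappc6b and Rab33b were each lost when any of at least 2 single libraries was left out, with edgeR adjusted p from 0.0525 to 0.196, and those of the other further genes named were not. That of Rab33b was also lost with the replicate number as a block (0.0551). In DESeq2 the calls of Tmed4, Use1, Trappc2 and Rab33b were lost (adjusted p = 0.0914, 0.0840, 0.0629 and 0.0939), and with no filter that of Tmed4 (edgeR adjusted p = 0.0539). Trappc2 overlaps an unnamed row with more counts.

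Genes of the factors known to act on this route did not move in 1 direction. Atf6, the ER membrane factor cleaved in the Golgi, was 427, 403 and 428 CPM in the control libraries and 226, 193 and 241 CPM with siRNA_ANK (log2 fold change -0.93 ± 0.073, edgeR adjusted p = 3.13e-07). Ern1, which encodes the nuclease that splices Xbp1 RNA, fell 1.74-fold, and Atf6b and Creb3l1 each fell 1.22-fold. Creb3l2, known in mouse cartilage for its action on Sec23a, rose from 413 ± 24.9 to 476 ± 16.0 CPM (0.21 ± 0.058, edgeR adjusted p = 0.0108), while Sec23a fell. That call of Creb3l2 was lost without control replicate 1 or 3 or siRNA_ANK replicate 1 (edgeR adjusted p = 0.0721, 0.0641 and 0.0702). RNA counts do not measure the active protein, and a link between these genes was not tested.

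The proteases that cleave ATF6 were not lower. Mbtps1 rose from 157 ± 5.10 to 177 ± 10.6 CPM (edgeR adjusted p = 0.0296), a call that was lost when any library but negative control replicate 2 or siRNA_ANK replicate 3 was left out (0.108 to 0.13) and in DESeq2 (0.0537). Mbtps2 was 23.4 ± 2.02 and 26.4 ± 2.10 CPM (edgeR adjusted p = 0.146). Xbp1 was 342, 350 and 342 CPM in the control libraries and 289, 274 and 346 CPM with siRNA_ANK, with replicate 3 among the controls (edgeR adjusted p = 0.0657). It fell without siRNA_ANK replicate 3 (2.45e-05), with no filter (0.0106) and with the replicate number as a block (0.0317). Counts per gene do not show splicing of Xbp1 RNA, so its active form was not measured.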

How the data were processed

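Total RNA of 6 libraries was sequenced, and the authors deposited whole-number counts per gene for each library, not normalized. The build mRatBN7.2, DESeq2 and featureCounts 1.5.0-p3 are named per the submitters' processing notes; aligner and strand setting: not given in the sources used here. The files list 30945 rows. Of these, 385 have no symbol or Ensembl identifier (0.306% to 0.339% of the counts) but stand for loci and were kept.

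Counts were fitted with edgeR 4.0.16 in R 4.3.3: filterByExpr with a minimum count of 10, TMM factors, the quasi-likelihood test (robust, two-sided, no covariate), and Benjamini-Hochberg adjustment over the 13016 genes tested. SE is the log2 fold change over the square root of F. CPM are computed here. Calls need an adjusted p under 0.05. The steps were tested on simulated counts. DESeq2 1.42.0 and limma 3.58.1 (voom) were alternatives. Levels of different genes were compared per kb of the gene length that the authors deposited as another column. Ratios in log2 between genes carry a prior count of 0.5.

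Members and lists were chosen with earlier results of these data known. Values in every library are given for up to 5 called members per role by adjusted p, for members called against the direction of their role, and for others named after their values were seen. Further pathway genes are the up to 2 largest called changes per list and direction at a mean of at least 5 CPM. A gene that this rule names is not reported here. Promoter sequences are RefSeq, build GRCr8. Counts of 2 libraries of a group differed by 2.83 to 12.3 in chi-square per degree of freedom, beyond sampling noise.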

Additional observations from a re-analysis of the deposited data

How the results depend on the processing

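The number of members that fell, 37, was 33 to 40 when each library was left out in turn, 35 in DESeq2 and with upper quartile scaling, 37 in limma-voom and with DESeq2 size factors, and 36 with no filter, with a filter at a mean of 5 CPM and with the replicate number as a block. Against a fold of 1.2 it was 19, and Sec24b no longer rose (0 members higher); 8 further pathway genes then fell and 0 rose. The number of further pathway genes that rose, 9, was 4 in DESeq2 and 4 to 7 with a library left out, and their median log2 fold change of -0.15 was -0.15 to -0.12, and -0.16 without negative control replicate 2 and siRNA_ANK replicate 3. The members' median stayed between -0.40 and -0.31 with a library left out. The sign turned for 3 members that were not called, Copz2 (0.05), Tmed3 (-0.01) and the low-count Arfgap1 (0.19 ± 0.34, SE). Copz2 was -0.02 without siRNA_ANK replicate 3 and -0.01 without that library and negative control replicate 2, a choice added after seeing the data. With a library left out, Copz2 ranged from -0.02 to 0.09, Arfgap1 from -0.03 to 0.39 and the Sar1b/Sar1a difference from -0.01 to 0.04. Arfgap1 was -0.03 without negative control replicate 2 and -0.14 without both. Tmed3 was 0.01 with upper quartile scaling, with the 5 CPM filter, and without negative control replicate 3 or siRNA_ANK replicate 1. The Sar1b/Sar1a difference, 0.01, was -0.01 without siRNA_ANK replicate 3. The cause was not tested. The numbers were not taken as pairs, since nothing says that they mark a shared animal, culture or day. Deviations of same-numbered libraries correlated at -0.0306, 0.0835 and 0.0491, and those of differently numbered libraries at -0.101 to 0.0594. Deviations centred within groups of 3 cannot decide whether libraries were paired. With the block the number of members that fell went from 37 to 36, the call of Trappc3 being lost (edgeR adjusted p = 0.0589). Of the other genes named, the block also ended the calls of Rab33b (0.0551) and AABR07071244.1 (0.0586) and made that of Xbp1 (0.0317). Arfgap1 had only 12 to 21 counts per library and overlaps Col20a1, a row with 101 counts on average. Why its counts were low was not tested.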
